A study of Mus musculus with 2 samples.

Results

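Genes of the cell cycle engine were compared between 2 zones of mouse growth plate cartilage. They were cyclins, cyclin-dependent kinases (CDKs), CDK inhibitors, E2F transcription factors with their partners and pocket proteins, CDC25 phosphatases, Wee1 and Mdm2. Members were all probe sets whose single gene symbol matched a fixed naming pattern for these families, which gave 141 of the 45101 probe sets on the array and 61 of 18193 named genes. Both groups came from wild-type mice of the C57BL/6J strain, sampled as E17.5 embryos. The first array held RNA of cartilage portions enriched in round chondrocytes and the second held RNA of portions enriched in columnar and hypertrophic chondrocytes, in each case from 3 portions mixed before hybridization. A portion enriched in a zone still holds neighbouring cells, and the columnar and hypertrophic zones were not separated from each other.

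Cyclins bind CDKs and switch them on. D-type cyclins with CDK4 or CDK6, followed by cyclin E with CDK2, phosphorylate the pocket proteins RB, p107 and p130, which releases E2F factors to transcribe genes of DNA replication, while cyclins A and B with CDK1 drive mitosis. CIP/KIP and INK4 inhibitors hold the kinases back. In the growth plate, round cells divide slowly, flat columnar cells proliferate and are arranged in columns, and chondrocytes leave the cell cycle as they become hypertrophic.

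Each probe set had 1 linear MAS5 signal on each array. With 1 array per group there was no replicate error, no test and no p-value, and the precision of every value is limited by having 2 arrays. The spread between probe sets of the same gene is the only error available, and it is technical. Its SD was 0.367 on the log2 scale over 4825 genes. Signals at or under 100.5, the level of chemosensory receptor genes that cartilage should not express, were treated as a floor. A difference is the log2 signal on the columnar/hypertrophic array minus that on the round array, by the brightest probe set of a gene unless another is named. In RNA from tissue, fewer cells of a type and less RNA per cell cannot be told apart.

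The labels were checked against marker genes. The summed signal of 7 hypertrophic markers was 1631 in the round portions and 37370.1 in the columnar/hypertrophic portions, although the terminal marker Mmp13 did not reach the floor. The sum of 7 round and resting markers was 45949 and 6423, and all 8 general chondrocyte markers were above the floor and within 1.5-fold. Perichondrium and tendon markers differed between the zones as well. Of 8 genes, 4 had columnar/hypertrophic signals lower by 2-fold or more and 0 higher by as much, with sums of 58647 and 21752, and Scx and Dpt were under the floor on both arrays. Of 5 osteoblast markers, 1 was at least 2-fold higher, Sp7, with signals of 170.3 and 1939.6, and Dmp1, Sost and Phex were under the floor on both arrays. All 6 endothelial and all 4 erythroid markers were under the floor on both arrays. Of 6 macrophage and osteoclast markers 0 passed 2-fold (sums 1367 and 857), and of 6 muscle markers 1 did, Tnnt3, at least 4.26-fold higher (sums 353 and 564). The part of fibrous tissue and osteoblast lineage cells in the differences that follow was not tested.

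Promoter sequence was available in RefSeq (GRCm38.p6) for 46 of the 61 genes, as windows from 250 bases before to 50 bases after a transcription start. The windows of 4 genes are printed 5′ to 3′ on the strand of the gene. Cdk6 (chr5:3343643-3343942, plus strand) and Cdkn1a (chr17:29090729-29091028, plus strand, the upstream of 2 starts) had the largest differences between the zones. Cdk1 (chr10:69352863-69353162, minus strand) and Ccnb2 (chr9:70421505-70421804, minus strand) act at mitosis and stayed within 1.5-fold. Capitals mark matches on either strand to an E2F motif (TTTCCCGC, TTTCGCGC, TTTGCCGC or TTTGGCGC), to the CHR (cell cycle genes homology region) motif TTTGAA, to CCAAT, or to the p53 decamer. No matches overlapped in the printed windows.
Cdk6: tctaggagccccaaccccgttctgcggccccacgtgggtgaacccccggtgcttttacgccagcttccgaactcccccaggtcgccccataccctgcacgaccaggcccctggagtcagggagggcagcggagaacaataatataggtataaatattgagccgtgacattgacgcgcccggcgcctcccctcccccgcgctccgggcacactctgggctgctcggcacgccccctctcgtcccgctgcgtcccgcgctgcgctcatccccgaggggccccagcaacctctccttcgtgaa
Cdkn1a: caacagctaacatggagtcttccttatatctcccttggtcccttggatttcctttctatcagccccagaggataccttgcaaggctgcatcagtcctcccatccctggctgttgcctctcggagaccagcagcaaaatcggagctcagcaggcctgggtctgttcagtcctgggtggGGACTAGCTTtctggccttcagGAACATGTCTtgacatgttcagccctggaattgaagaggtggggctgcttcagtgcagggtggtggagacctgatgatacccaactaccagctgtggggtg
Cdk1: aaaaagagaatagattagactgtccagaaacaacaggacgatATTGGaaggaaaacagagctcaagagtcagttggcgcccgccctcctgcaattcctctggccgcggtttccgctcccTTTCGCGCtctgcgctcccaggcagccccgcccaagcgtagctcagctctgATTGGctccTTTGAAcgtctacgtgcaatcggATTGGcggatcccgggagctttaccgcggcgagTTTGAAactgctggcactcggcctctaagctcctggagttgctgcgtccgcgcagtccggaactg
Ccnb2: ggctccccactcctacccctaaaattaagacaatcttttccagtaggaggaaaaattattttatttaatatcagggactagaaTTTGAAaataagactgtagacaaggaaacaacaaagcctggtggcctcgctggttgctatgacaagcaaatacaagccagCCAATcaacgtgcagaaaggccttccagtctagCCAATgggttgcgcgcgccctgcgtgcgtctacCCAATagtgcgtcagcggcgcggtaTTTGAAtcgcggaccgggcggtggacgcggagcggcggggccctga

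The Cdk1 window held 1 E2F match, 2 CHR matches and 3 CCAAT matches, and the Ccnb2 window held 2 CHR and 3 CCAAT matches. The 3 CCAAT matches of Ccnb2 began 87, 54 and 21 bases before the start. The Cdk6 window held no match to these motifs. The printed Cdkn1a window held 2 p53 decamers, which began 73 and 51 bases before the start. The window at the downstream Cdkn1a start, not printed, held no p53 decamer. The p53 decamer was added after the Cdkn1a window had been seen. Over the families, 10 of 55 windows (18.2%) held an E2F match, against 2.26% of 32851 windows of all genes. They belonged to Cdk1, Cdk2, Cdkn2a, Rbl1, E2f2, E2f3, E2f7, Tfdp1 and Cdc25a. Of these 9 genes, 8 passed the floor in 1 or both zones, with differences from -0.39 to 0.67 (E2f2 as a bound). Of the 8, 0 passed 2-fold, against 10.7% of all genes above the floor. CHR matches were in 18.2% of the windows, against 17.9% of all windows, and CCAAT in 49.1%, against 37.4%. The p53 decamer was in the windows of Ccng1, Cdkn1a, Cdkn2d, Tfdp2 and Mdm2 (9.09%, against 8.36% of all windows). Their differences ran from -1.06 to 1.41. Of the 5, 2 passed 2-fold, in opposite directions (against 10.7% of all genes above the floor). A match in letters is a description of the window and not a measured binding site.

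Most genes of the cell cycle engine had similar signals in the 2 zones, and so did most of all named genes above the floor. Signals passed the floor in 1 or both zones for 56 of the 61 genes, and in both for 53. At 2-fold, Cdk6, Cdkn1a and Rb1 were higher in the columnar/hypertrophic portions (5.36% of the 56, against 4.31% of all 11703 genes above the floor), and Tfdp2 was lower (1.79%, against 6.37%). In either direction these were 4 genes (7.14%, against 10.7%), so the families as a whole did not stand apart from other genes at 2-fold. Of their 120 probe sets above the floor, 7 were higher by 2-fold (5.83%, against 4.27%) and 3 lower (2.5%, against 6%). Tfdp2 was under 2-fold with each of 3 other scalings of the arrays, which left a split of 3 higher and 0 lower. At 1.5-fold, 7 genes were higher (12.5%, against 11.7%) and 4 lower (7.14%, against 15.8%), and of the 53 measured in both zones 42 lay within 1.5-fold (79.2%, against 73.9% of all genes so measured). The other 3 (Cdk3, E2f2 and E2f4) were under the floor in 1 zone, and their bounds do not say whether they reached 1.5-fold. With bounds at their smallest value, the median difference of the 56 genes was -0.03, and that of all genes -0.05. Their median absolute difference was 0.338, and so was that of all genes. Of 15 cyclin genes above the floor, 0 passed 2-fold, against 10.7% of all genes above the floor. Within 1.5-fold lay 14 of the 15 (93.3%, against 73.9% of all genes measured in both zones). Of 16 CDK genes measured in both zones, 12 lay within 1.5-fold (75%), close to the 73.9% of all genes.

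**Figure D1:**
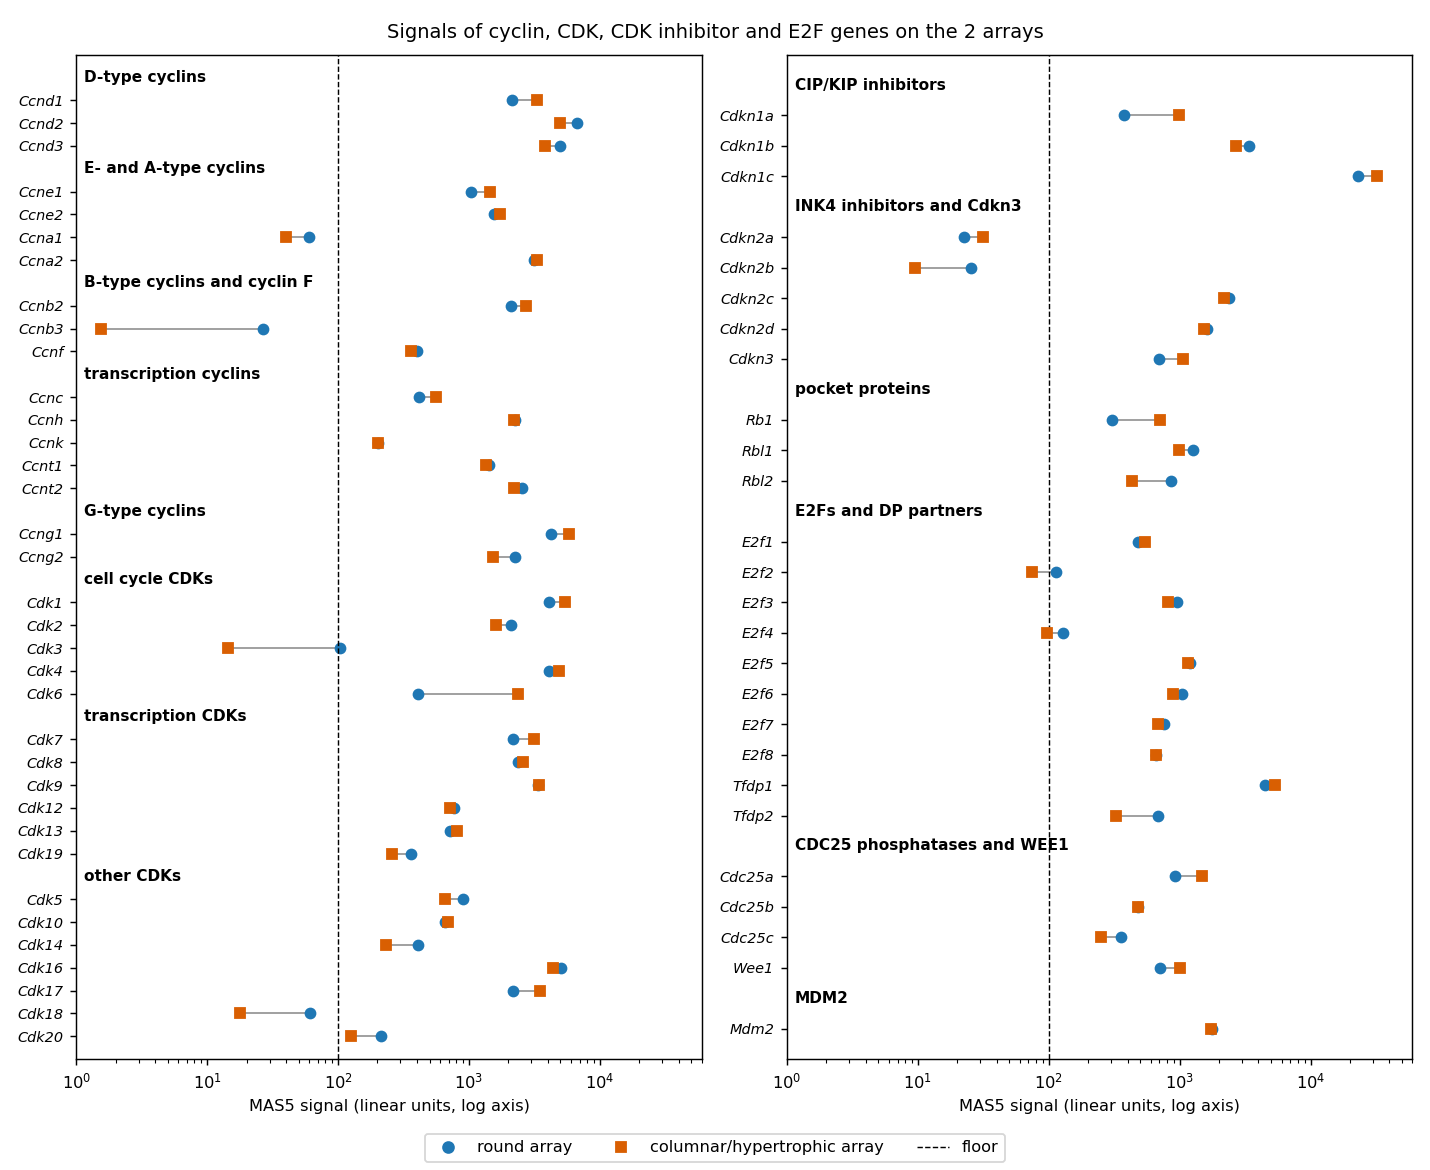
MAS5 signal (horizontal, log axis) of the 61 genes by role, with the round array as circles, the columnar/hypertrophic array as squares (1 array each) and the floor of 100.5 as a dashed line. Cdk6 goes from 409 to 2355, Cdkn1a from 373 to 990.2 and Rb1 from 306 to 702, Tfdp2 and Rbl2 go the other way, and most pairs of symbols lie close together.

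The 3 D-type cyclins, which link growth signals to CDK4 and CDK6, did not differ in 1 direction. Ccnd1 had signals of 2136 (round) and 3295 (columnar/hypertrophic, 1.54-fold higher), and its other probe sets gave 1.55-fold and 2.27-fold. Ccnd2 went the other way, from 6718 to 4918 (1.37-fold lower). All 7 Ccnd2 probe sets lay under 0, between -0.54 and -0.08, and so apart from the 3 of Ccnd1, between 0.63 and 1.18. Ccnd3 went from 4999.6 to 3813 (1.31-fold lower), while a dimmer Ccnd3 probe set, under the floor on the round array, gave a bound of 0.17. The difference of Ccnd1 exceeded that of Ccnd2 by 1.08 on the log2 scale.

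The cyclins of S phase and mitosis that were measured had similar signals in both zones. Ccnb1, a mitotic cyclin, had no probe set with its symbol alone and was not measured here. Ccne1, which partners CDK2 at the entry into S phase, had signals of 1042 and 1458 (0.48, but 0.13 by its other probe set). Ccne2, its paralogue, had 1559 and 1720.0 (0.14). Ccna2, the cyclin A of dividing somatic cells, had 3167 and 3308, and its probe sets gave 0.06 and 0.19. Ccnb2, another mitotic cyclin, had 2108 and 2738 (0.38) by its only probe set. These 4 genes lay on the higher side, all within 1.5-fold, although Ccna2 was at -0.03 with quantile normalization and -0.04 with lowess centring. Ccnf, which encodes an F-box protein that marks proteins for destruction, had 398 and 363 (-0.13). The germ cell cyclins Ccna1 (59.8 and 40.0) and Ccnb3 (26.6 and 1.55) were under the floor on both arrays.

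The G-type cyclins, which take part in growth arrest and stress responses, differed in opposite directions. Ccng1, a target gene of p53, had signals of 4223 and 5824 (0.46), and its 3 probe sets lay between 0.46 and 0.59. Ccng2, which accumulates in arrested cells, had 2245 and 1522 (-0.56), and its 2 probe sets gave -0.58 and -0.56. Each gene was under 1.5-fold, while the gap between them was 1.02 on the log2 scale (2.03-fold). Cyclins of the transcription machinery were close to equal. Ccnk, the partner of CDK12 and CDK13, had 203 on both arrays, and Ccnh, of the CDK-activating kinase, had 2261 and 2212. Ccnt1, a cyclin of the elongation kinase CDK9, had 1434 and 1358 (-0.08), although a dimmer probe set gave -0.92. Ccnt2, its paralogue, had 2521 and 2216 (-0.19, with other probe sets between -0.56 and 0.25). Ccnc, the cyclin of the Mediator kinases, had 418 and 559 (0.42).

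Cdk6, the G1 kinase that pairs with D-type cyclins, had the largest difference among the 61 genes. Its brightest probe set went from 409 in round to 2355 in columnar/hypertrophic portions (5.75-fold), the second from 286 to 1987 (6.94-fold) and the dimmest from 19.0, under the floor, to 280.1 (at least 2.79-fold). All 3 Cdk6 probe sets were thus higher in the columnar/hypertrophic portions. Among 10235 genes that passed the floor in both zones, 32 had a higher difference. Cdk4, the kinase with the same cyclin partners, had signals of 4104 and 4864 (0.24), with 3 probe sets between 0.07 and 0.24. The gap between Cdk6 and Cdk4 was 2.28 on the log2 scale (4.85-fold).

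Of the other kinases that drive the cycle, the 3 measured in both zones (Cdk4, Cdk1 and Cdk2) lay within 1.5-fold. So did 73.9% of all genes measured in both zones. Cdk1, the mitotic kinase, had signals of 4112 and 5419 (0.40), and Cdk2, the kinase of S phase, had 2098 and 1607 (-0.39). Cdk3 was near the floor on the round array (104) and under it on the other (14.5), so its difference is a bound. Among 6 kinases of transcription, Cdk9 (0.03) and Cdk12 (-0.10) were nearly equal. Cdk8 had 2353 and 2602 (0.15) and Cdk13 had 720.4 and 809.5 (0.17, with other probe sets between -0.13 and 0.71). Cdk19, a Mediator kinase like CDK8, had 362 and 259 (-0.48). The direction of Cdk7, the catalytic subunit of the CDK-activating kinase, was not settled. Its brightest probe set gave 0.52 (2181 and 3126), and of its 4 other probe sets 3 lay between -0.36 and -0.22 and 1 at 0.55.

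Kinases named as CDKs for their sequence, with roles mainly outside the cycle, held several of the larger differences. Cdk14, which acts in WNT receptor signalling, had signals of 411 and 234 (1.75-fold lower), and its second probe set gave -0.76 beside -0.81. Cdk20 had 215 and 125 (1.71-fold lower) by its only probe set. Cdk17 had 2179 and 3499 (1.61-fold higher, but 0.30 by its other probe set). Cdk5, known for its work in neurons, had 906 and 651 (-0.48), and its dimmer probe set, under the floor in columnar/hypertrophic portions, gave a bound of -1.04. Cdk10 (0.08) and Cdk16 (-0.19) were close to equal, and Cdk18 did not reach the floor (60.6 and 17.8).

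**Figure D2:**
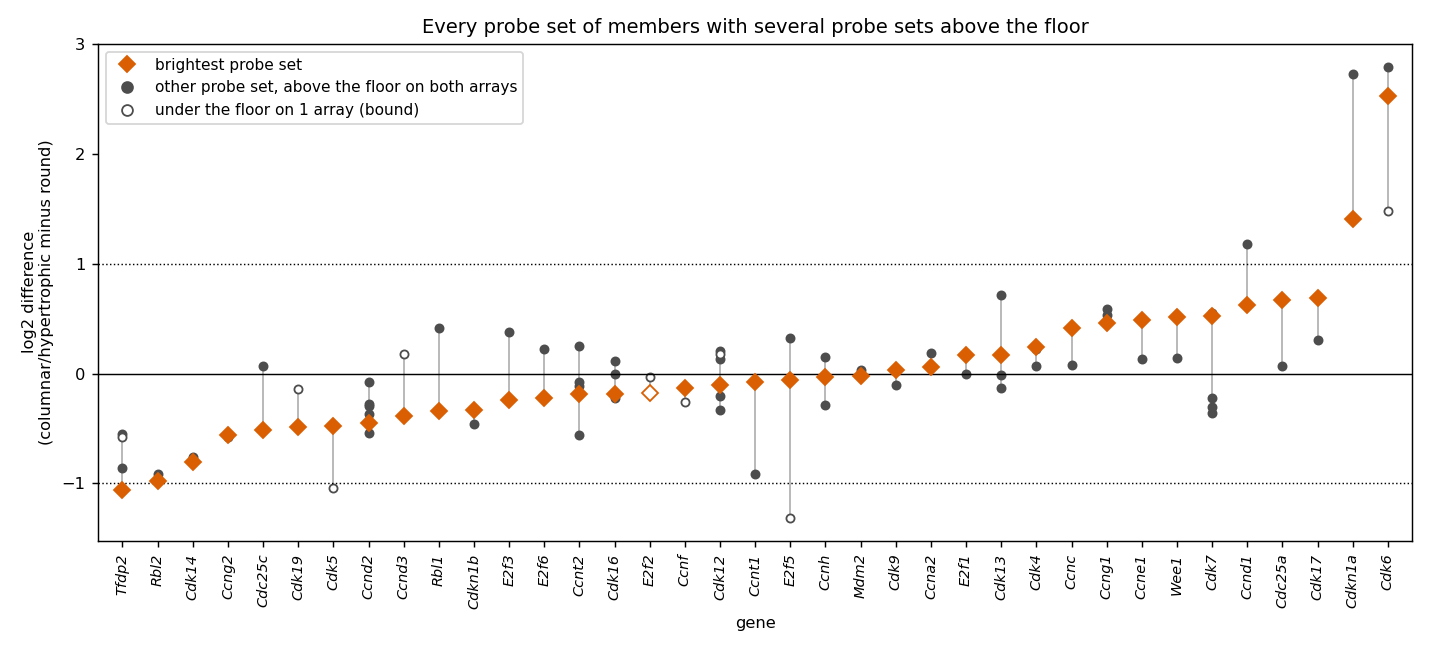
Log2 difference (columnar/hypertrophic minus round, vertical) of every probe set above the floor in 1 or both zones, for genes with several such probe sets, with the brightest probe set as a diamond, others as circles, bounds as open symbols and 2-fold as dotted lines. All probe sets of Cdk6, Cdkn1a and Ccnd1 lie above 0 and all of Tfdp2, Rbl2, Cdk14 and Ccnd2 under 0, while those of Cdk7 lie on both sides.

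The CIP/KIP inhibitors were all above the floor in both zones, and 1 of 3 passed 2-fold (against 10.7% of all genes above the floor). Cdkn1a, encoding p21, had signals of 373 and 990.2 (2.66-fold higher in columnar/hypertrophic portions), and its second probe set went from 134 to 886 (6.61-fold). Both probe sets were thus higher, by different amounts, and with their mean the difference was 2.07 on the log2 scale. Of the same 10235 genes, 168 had a higher difference than Cdkn1a. Cdkn1b, encoding p27, had 3385 and 2681 (-0.34, and -0.46 by its second probe set). Cdkn1c, the imprinted gene of p57, an inhibitor needed for hypertrophic differentiation of chondrocytes, had 22876 and 32040.5 (0.49) by its only probe set.

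The INK4 inhibitors block CDK4 and CDK6 alone. Cdkn2a (22.5 and 31.5) and Cdkn2b (25.3 and 9.52) were under the floor on both arrays. Cdkn2c, encoding p18, had signals of 2392 and 2177 (-0.14), and Cdkn2d, encoding p19, had 1629 and 1547 (-0.07). Of this family, the 2 genes measured were thus nearly equal in both zones. Cdkn3, a phosphatase that acts on CDKs and is made in dividing cells, had 694 and 1053 (1.52-fold higher).

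Pocket proteins and the partners of E2F split within each family. Rb1, the retinoblastoma gene, had signals of 306 and 702 (2.29-fold higher in columnar/hypertrophic portions) by 1 probe set, its other one being under the floor on both arrays. Rbl2, encoding p130, the pocket protein of resting cells, had 857 and 435 (1.97-fold lower) and 395 and 209 by its second probe set (-0.92). The gap between Rb1 and Rbl2 was 2.17 on the log2 scale (4.51-fold). Rbl1, encoding p107, had 1259 and 995 (-0.34), but its second probe set gave 0.42, so its direction was not settled. Tfdp2, encoding a DP partner of E2F, had 686 and 329 (2.08-fold lower). The other Tfdp2 probe sets gave -0.86, -0.55 and a bound of -0.58, all on the lower side. Tfdp1, the other DP gene, had 4492 and 5312 (0.24).

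The 6 E2F genes measured in both zones lay within 1.5-fold by their brightest probe sets, as did 73.9% of all genes so measured. The activators E2f1 and E2f3 had signals of 481 and 539.7 (0.17) and of 962 and 814 (-0.24, but 0.37 by another probe set). E2f2 (114 and 75.0) and E2f4, a repressor that works with p107 and p130 (129 and 97.3), were near the floor on the round array and under it on the other, which gives bounds only. E2f5 gave -0.06, with other probe sets at 0.32 and at a bound of -1.32. The repressors E2f6 (-0.23, but 0.23 by a dimmer probe set), E2f7 (-0.15) and E2f8 (658 and 662) were close to equal.

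CDC25 phosphatases switch CDKs on and WEE1 holds CDK1 back. Cdc25a had signals of 926 and 1469.7 (1.59-fold higher), but 0.07 by its second probe set. Cdc25b had 478 on both arrays. Cdc25c had 358 and 250.4 (-0.51), but 0.07 by its second probe set. Wee1 had 705 and 1011 (0.52, and 0.14 by its second probe set). For Cdc25a, Cdc25c and Wee1 the second probe set thus gave a smaller or opposite difference. Mdm2, which encodes the ubiquitin ligase of p53, had 1765 and 1742 (-0.02). Trp53, the gene of p53 itself, had no probe set with its symbol alone and was not measured here.

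Probe sets of a gene served as a technical check. In 32 genes several probe sets exceeded the floor in both zones, and 18 of these genes had all of them on the same side of 0. This held for all 8 genes with at least 1.5-fold by the brightest probe set, and for 10 of the other 24. The SD between probe sets of a gene was 0.303 over these families, a little under the 0.367 over all genes. A further 21 of the 61 genes had 1 probe set and no such check. The remaining genes, Rb1 among them, had several probe sets but no more than 1 above the floor in both zones. They had no such check either.

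**Figure D3:**
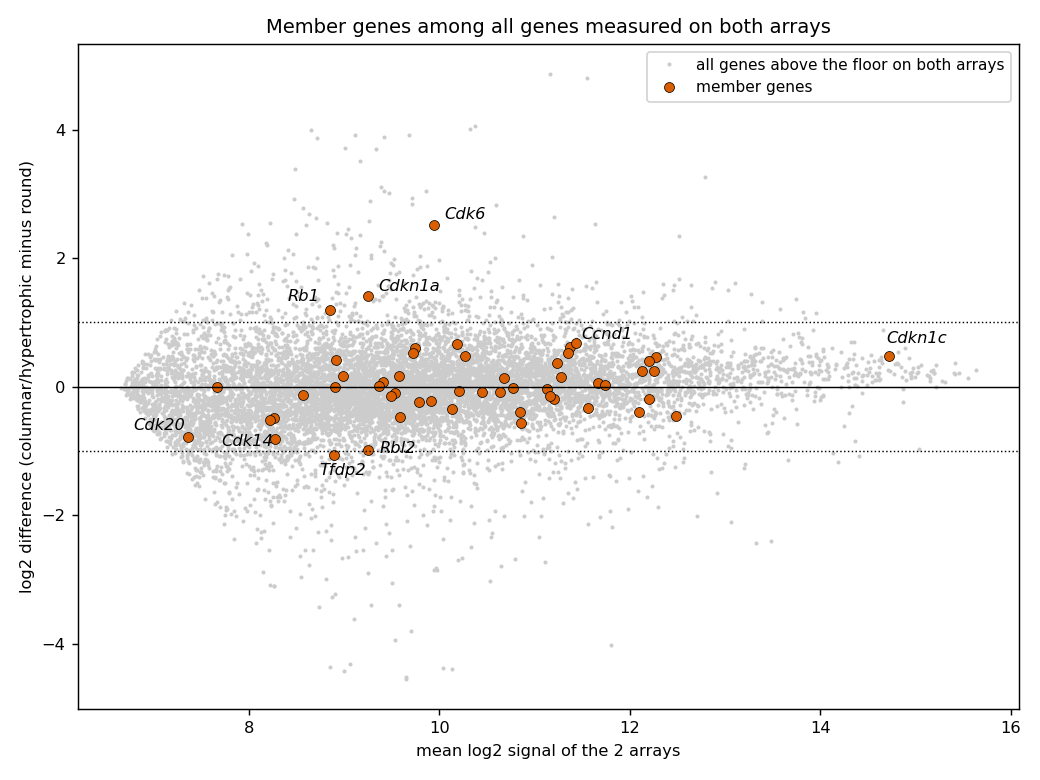
Log2 difference (columnar/hypertrophic minus round, vertical) against mean log2 signal (horizontal) of genes above the floor on both arrays, with all 10235 genes in grey, the 53 cell cycle engine genes in orange and 2-fold as dotted lines. Cdk6 at 2.52, Cdkn1a at 1.41 and Rb1 at 1.20 lie above the upper line, Tfdp2 at -1.06 under the lower one, and the others between them.

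Other genes linked to the cell cycle were taken from lists of replication genes, mitosis genes, p53 targets, and CDK partners and regulators. Of 22 replication genes under E2F control, 21 lay within 1.5-fold by their brightest probe sets. This was 95.5%, against 73.9% of all genes measured in both zones. Tyms, of thymidylate synthesis, was the exception, with signals of 228 and 108 (2.10-fold lower in columnar/hypertrophic portions, near the floor there), a call that was lost with each of the 3 other scalings. The replication list had a median of -0.01 and a median absolute difference of 0.129, against 0.338 for all genes. A dimmer probe set of Orc1 reached 0.59, beside -0.02 by its brightest. By their brightest probe sets, all 26 mitosis genes lay within 1.5-fold (100%, against 73.9%), from -0.44 for Foxm1 to 0.51. Some of their other probe sets went further or the other way. Those of Foxm1 ran from -0.44 to 0.41 and those of Cenpf from -0.31 to 0.99. Cenpe reached 1.05 and Ttk -0.84. Of the 26 genes 21 lay above 0 (against 5280 of all 11703), with a median of 0.17. After lowess centring that median was 0.095.

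The p53 target list was more spread, with a median of -0.06. Of its 13 genes measured in both zones, 7 lay within 1.5-fold (53.8%, against 73.9% of all genes so measured). Aen, an apoptosis nuclease gene, had signals of 139 and 485 (3.49-fold higher, and 1.25 by a second probe set, log2). Sesn2, a sestrin gene also induced by amino acid and ER stress, had 130.4 and 332 (2.55-fold higher, but -0.69 by its other probe set). Gadd45a, a gene of growth arrest, had 279 and 103 (2.71-fold lower, with the columnar/hypertrophic signal near the floor of 100.5). Ddb2, of DNA repair, had 1338 and 652 (2.05-fold lower) and Plk2 had 224 and 22.2 (at least 2.23-fold lower). Of 18 genes above the floor the list thus held 2 at 2-fold higher (against 4.31% of all genes) and 3 lower (against 6.37%), the latter 1 with equal medians and 2 with quantile normalization. Sesn2 alone of the 5 had a probe set on the other side of 0 (Gadd45a and Plk2 had 1 above the floor).

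Among 28 partners and regulators of CDKs above the floor, 26 were measured in both zones. Within 1.5-fold lay 20 of these 26 (76.9%, against 73.9% of all genes so measured). The median of the 28 was -0.10. Med12, the Mediator subunit that activates CDK8, had signals of 775 and 2239 (2.89-fold higher) by 1 probe set. By brightest probe sets, Med12 was the only gene at 2-fold. A dimmer probe set of Pkmyt1 reached 1.87, beside 0.07, and a dimmer one of Hexim1 reached -1.64, beside -0.71. The subunits that tether CDKs to their substrates, Cks1b and Cks2, gave 0.18 and 0.43, and Skp2, of the ubiquitin ligase that removes p27, gave 0.37 with 6 probe sets between -0.44 and 0.96.

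**Figure D4:**
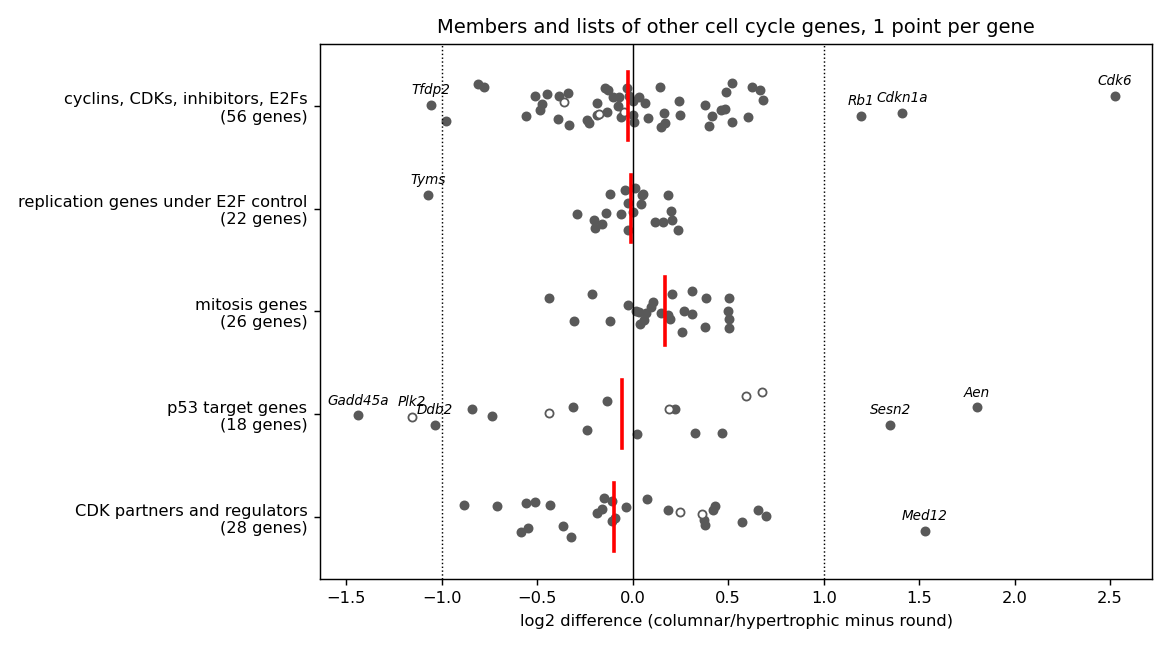
Log2 difference (columnar/hypertrophic minus round, horizontal) of genes above the floor in the cell cycle engine families and in 4 lists of other cell cycle genes, 1 point per gene with vertical scatter for display, bounds as open points, medians as red bars and 2-fold as dotted lines. Replication and mitosis genes lie close to 0 apart from Tyms. The p53 targets spread from -1.44 for Gadd45a (near the floor on the columnar/hypertrophic array) to 1.80 for Aen.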

How the data were processed

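RNA was hybridized to Affymetrix Mouse Genome 430 2.0 arrays, 1 per group. The deposited values are intensities, 1 linear MAS5 signal per probe set. The authors' processing notes name MAS5 (its version is not given in the sources used here), which subtracts background and scales whole arrays (trimmed mean 500.0 on both, without 2% at each end). The study's methods name RMA, a log-scale method that these values do not show. Median signals were 128 and 105, and 55.0% and 50.8% of probe sets lay above the floor of 100.5. The floor was the 95th percentile of 87 chemosensory receptor probe sets over both arrays. Lower signals were raised to it before log2, so a gene under it on 1 array gives a bound ("at least").

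Gene symbols came from GEO's platform annotation. Probe sets with several symbols (932) or unnamed (9211) and 64 controls were not used for genes. The brightest probe set by mean log2 signal stood for a gene. Differences were computed with Python 3.11.15, pandas 2.3.3, numpy 2.4.6 and statsmodels 0.14.6, and counted at 2-fold and 1.5-fold, since 1 array per group allows no test. The counting was tested on simulated data. Families and lists were chosen with earlier results of these data known. Values were given for genes at 1.5-fold, the 4 largest differences of each role and a fixed set, and for list genes at 2-fold. Of the fixed set, Ccnb1 and Trp53 had no probe set with a single symbol and so no values. Cks1b, Cks2, Skp2, Pkmyt1, Hexim1, Orc1, Foxm1, Cenpf, Cenpe and Ttk were chosen for mention after their values were seen. The p53 decamer was chosen after the Cdkn1a window was seen. Promoter windows were RefSeq's (GRCm38.p6), with 46 of 61 genes matched by Entrez gene identifier. Alternatives comprised 3 scalings, 3 floor settings and 2 gene summaries.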

Additional observations from a re-analysis of the deposited data

How the results depend on the processing

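Over 8 alternatives, 438 recomputed differences of single family members were obtained. Of these, 431 moved by less than the technical SD of 0.367, 7 moved by more, and 0 genes at 2-fold changed sign. Many could not move by more. Floor settings hardly change genes well above the floor, and gene summaries cannot change the 21 genes with 1 probe set. The count of 431 is therefore a weak check. The 3 genes at least 2-fold higher (Cdk6, Cdkn1a and Rb1) were the same under all 8, with Cdk6 between 2.27 and 2.80, Cdkn1a between 1.41 and 2.07 and Rb1 between 1.19 and 1.48. Tfdp2 lay between -1.06 and -0.76. The sign turned under 1 or more alternatives for 20 members, of which 0 had reached 1.5-fold. Equal medians moved the median of all genes by 0.27, so differences were higher by about that amount, which is itself under 0.367.

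The count of family members at least 2-fold lower, 1 in the report, was 0 with equal medians, quantile normalization, lowess centring and probe set means, and so was the count among E2Fs and DP partners. Without a floor it was 5, with 1 each among B-type cyclins, cell cycle CDKs, other CDKs and INK4 inhibitors, and those 4 genes (Ccnb3, Cdk3, Cdk18 and Cdkn2b) were at 104 or lower on both arrays. The replication list had 0 genes at least 2-fold lower with the 3 scalings and with the floor at the 99th percentile, against 1 (Tyms). For p53 targets, the count lower was 1 with equal medians, 2 with quantile normalization, 1 with the higher floor and 5 without a floor, against 3, and the count higher was 5 without a floor and 1 with probe set means, against 2. For CDK partners, the count higher was 3 without a floor, against 1, and the count lower was 1 (Hexim1) with probe set means and without shared probe sets, against 0. The median of the pocket proteins moved from -0.34 to 0.0378 with probe set means, where Rbl1 was the middle of 3 genes. The cause of the other moves was not tested. With probe set means or without shared probe sets, Cdk7 went from 0.52 to 0.04 and -0.31, and Ccnt1 moved from -0.08 to -0.50 with means.

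No paired analysis was possible because each group had 1 array, and for the same reason no replicate was left out. Signal over background limits E2f2, E2f4 and Cdk3, which have bounds only.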
